A study of Saccharomyces cerevisiae with 4 samples.

Results

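The histidine synthesis genes of budding yeast, Saccharomyces cerevisiae, are the 7 genes HIS1 to HIS7, taken by their systematic identifiers from a table of 6688 gene identifiers. All 7 were measured and passed the low-count filter. The series compares polyadenylated RNA of wild-type cells and of the nhp6ab strain, both in exponential growth in YPD (a rich medium with glucose that supplies amino acids), with 2 libraries per strain. The name nhp6ab is the usual one for a strain without NHP6A and NHP6B, which encode closely related HMG-box proteins that bend DNA and work with the histone chaperone FACT. The labels give neither the strain background nor the selection markers used to make the deletions, and they do not say whether the 2 libraries of a strain came from separate cultures. Every p-value here thus reflects the spread between libraries that may be technical replicates.

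Histidine is built from PRPP (phosphoribosyl pyrophosphate) and ATP in a chain of reactions that yeast runs with these 7 genes, which lie apart on the chromosomes rather than in an operon. HIS genes are classical targets of Gcn4, the activator that responds to amino acid shortage, and a few are also activated by Bas1 with Pho2 (Bas2), the pair that controls purine synthesis. The pathways meet because the step catalysed by His7 releases AICAR, an intermediate of purine synthesis. HIS3 and HIS4 are also long-standing models of how chromatin and TATA elements shape transcription, and HIS3 is a common selection marker in yeast genetics.

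The 7 genes did not move as a group in nhp6ab. HIS4 and HIS1, the most abundant members in the wild type, fell, HIS3 rose, and HIS2, HIS5, HIS6 and HIS7 did not pass the test. With 1 gene called higher and 2 called lower, 3 of 7 members passed edgeR's quasi-likelihood test (adjusted p under 0.05), whereas 49.5% of all 6422 genes tested passed it, 24.5% higher and 25% lower. The share of members called is near that background and is no result about the members. Scaled by library size alone, 3 members passed as higher and 2 as lower, against 47.1% and 12.5% of all genes, and on log2(TPM + 1) 4 and 2, against 55.3% and 9.6%. The median log2 fold change (nhp6ab over wild type) was -0.03 over the members and 0.007 over all genes tested.

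The promoters of 4 members are shown because they differ in whether they hold the Gcn4 site, and because HIS4 fell, HIS3 rose, HIS7 differed between the nhp6ab libraries and HIS2 holds no such site. Each is the RefSeq R64 sequence from 250 bases before the start codon to 50 bases from it, 300 bases read 5′ to 3′ on the strand of the gene. Capitals mark every match to TGACTC, the core that Gcn4 and Bas1 recognise, to TGACTCA, the full Gcn4 site that contains it, and to TATAAA, which is a form of the TATA box. Both strands were searched, so that some capitals spell the reverse complement.
HIS4: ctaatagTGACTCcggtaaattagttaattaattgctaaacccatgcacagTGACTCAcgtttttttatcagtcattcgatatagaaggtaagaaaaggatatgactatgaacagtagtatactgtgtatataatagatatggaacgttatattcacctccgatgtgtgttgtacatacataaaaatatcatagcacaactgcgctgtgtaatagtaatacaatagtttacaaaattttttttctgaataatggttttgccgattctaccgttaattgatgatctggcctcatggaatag
HIS3: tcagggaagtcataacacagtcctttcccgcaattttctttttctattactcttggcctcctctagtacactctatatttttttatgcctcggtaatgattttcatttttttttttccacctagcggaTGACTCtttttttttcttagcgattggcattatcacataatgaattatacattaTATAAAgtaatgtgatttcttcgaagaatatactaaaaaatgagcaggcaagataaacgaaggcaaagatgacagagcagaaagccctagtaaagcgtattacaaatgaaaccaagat
HIS7: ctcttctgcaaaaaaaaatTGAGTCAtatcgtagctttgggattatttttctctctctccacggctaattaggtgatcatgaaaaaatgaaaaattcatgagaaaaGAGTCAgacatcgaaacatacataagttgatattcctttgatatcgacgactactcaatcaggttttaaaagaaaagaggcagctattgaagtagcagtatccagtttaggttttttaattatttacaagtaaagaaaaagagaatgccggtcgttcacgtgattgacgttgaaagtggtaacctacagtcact
HIS2: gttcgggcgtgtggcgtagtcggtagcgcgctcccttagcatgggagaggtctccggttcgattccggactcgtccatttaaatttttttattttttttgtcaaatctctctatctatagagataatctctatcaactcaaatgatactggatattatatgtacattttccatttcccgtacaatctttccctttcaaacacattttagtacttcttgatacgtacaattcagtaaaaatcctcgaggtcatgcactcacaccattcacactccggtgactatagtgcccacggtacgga

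These windows lie at chrIII:68284-68583 (HIS4, minus strand), chrXV:721696-721995 (HIS3, plus strand), chrII:716416-716715 (HIS7, minus strand) and chrVI:204701-205000 (HIS2, minus strand). The core TGACTC was present in 5 of the 6 members' windows searched, all but that of HIS2, against 7.99% of 5981 promoters of the same length. HIS4 and HIS7 each held it at 2 places. The full site TGACTCA was present in 3 of these members, HIS4, HIS5 and HIS7, against 2.73% of all promoters. TATAAA was present in HIS3 and HIS5, in HIS5 only inside the coding sequence, against 45.2% of all promoters. In HIS3 the core began 122 bases and TATAAA 68 bases before the start codon. A match says only that these letters are in the window. The HIS2 window also holds sequence of a tRNA gene, which lies 173 bases upstream of HIS2 and was not measured here. Of the 3 members with the full site, HIS4 fell and HIS5 and HIS7 were not called. Of the 161 tested genes whose window held TGACTCA, a group chosen after the members' values were seen, 18.6% were called higher and 34.8% lower, with a median log2 fold change of -0.06. Of the 473 tested genes whose window held the core TGACTC, 23.3% were called higher and 29.8% lower, with a median of -0.008, against 24.5% and 25% of all genes tested.

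The libraries held 22622592 to 29115870 expected counts, of which the 7 genes took 0.2934 and 0.2953% in the wild type, against 0.2608 and 0.1988% in nhp6ab. The lowest value of any member in any library was 624 expected counts, for HIS6, where counting error alone (1 SD) is 4%. NHP6A had 122.5 and 129.6 CPM (read counts scaled to library size with TMM factors) in the wild type, against 11.1 and 12.01 CPM in nhp6ab. NHP6B had 80.0 and 86.0 CPM, against 33.4 and 32.6 CPM, so that 39.8% of the wild-type level of NHP6B was still counted in the strain labelled nhp6ab, and the origin of these counts was not tested. The labels and the files name no batch or date. No member has another R64 coding sequence with a BLAST match at an expected value of 1e-05 or less, so no paralog that could share their reads was found there. The 683 identifiers not matched to R64 were not compared, and whether they share reads with the members was not tested.

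**Figure D1:**
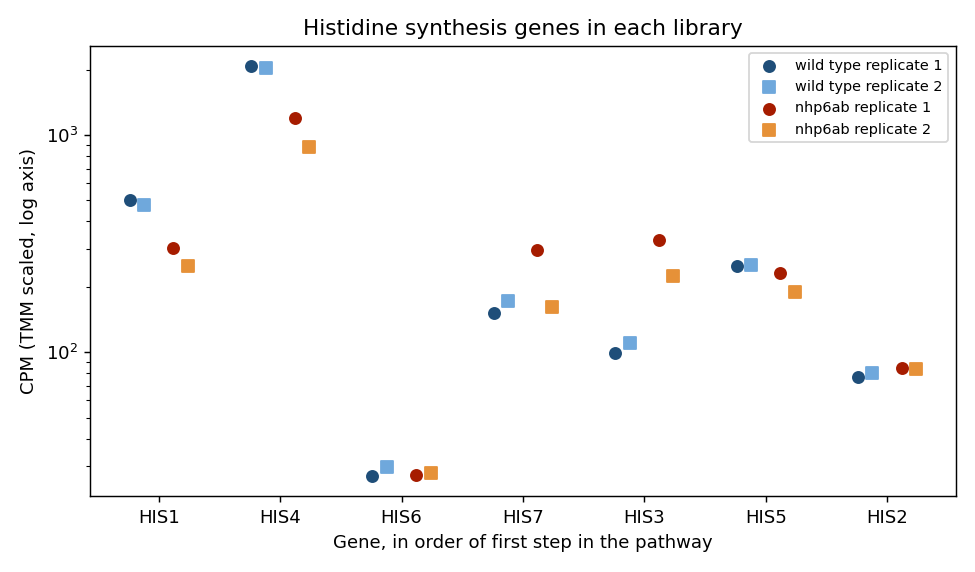
CPM of the 7 genes in each of the 4 libraries, on a log axis, with genes in the order in which their enzymes first act and 1 point per library. HIS1 and HIS4 lie lower and HIS3 higher in both nhp6ab libraries than in either wild-type library, and HIS7 is high in nhp6ab replicate 1 (295.8 CPM) but not in replicate 2 (161.2 CPM).

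HIS1 (YER055C; chromosome V, 264892 to 265785, minus strand, 1 exon) encodes ATP phosphoribosyltransferase, which makes the first and committed step and is inhibited by histidine. It had 501 and 474 CPM in the wild-type libraries and 303 and 248 CPM in the nhp6ab libraries. Both nhp6ab values lay below both wild-type values. The gene fell to 56.5% of the level in the wild type (log2 fold change -0.82 ± 0.10 SE, edgeR adjusted p = 0.000638).

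HIS4 (YCL030C; chromosome III, 65934 to 68333, minus strand, 1 exon) encodes the largest protein of the pathway, of 799 residues, which catalyses the reactions that follow His1 and the closing oxidation of histidinol to histidine. It had 2069 and 2043 CPM in the wild type, against 1197 and 879 CPM in nhp6ab. The groups did not overlap, and the nhp6ab libraries differed from each other far more than the wild-type libraries did. HIS4 fell to 50.5% of that in the wild type (log2 fold change -0.99 ± 0.13 SE, edgeR adjusted p = 0.00101). HIS1 and HIS4 stayed lower and called under all 14 alternatives, HIS1 between -0.98 and -0.54 and HIS4 between -1.23 and -0.71 on the log2 scale. Per length, HIS1 was at 0.667 and 0.640 of the HIS4 level (in TPM, values scaled for transcript length and library total) in the wild type, against 0.697 and 0.778 in nhp6ab.

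HIS6 (YIL020C; chromosome IX, 314035 to 314820, minus strand, 1 exon) encodes the isomerase that follows the early His4 steps and is the least abundant member. It had 27.0 and 29.5 CPM in the wild type, against 27.4 and 27.9 CPM in nhp6ab. The groups overlapped and the gene was not called (log2 fold change -0.03 ± 0.07 SE, edgeR adjusted p = 0.73). Its sign depended on the scaling, with 0.18 with library size alone and 0.25 on log2(TPM + 1), where the medians of all genes were 0.22 and 0.283, and it was called higher on the latter scale (adjusted p = 0.0334).

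HIS7 (YBR248C; chromosome II, 714807 to 716465, minus strand, 1 exon) encodes imidazole glycerol phosphate synthase, the enzyme that closes the imidazole ring and releases AICAR. It had 152 and 172 CPM in the wild type, 296 CPM in nhp6ab replicate 1 and 161 CPM in nhp6ab replicate 2. One nhp6ab library was thus well above the wild type and the other lay between the wild-type values. The gene was not called (log2 fold change 0.50 ± 0.25 SE, edgeR adjusted p = 0.134). Without nhp6ab replicate 1 the value was -0.01 (adjusted p = 0.899) and without nhp6ab replicate 2 it was 0.87 (adjusted p = 5.74e-05), so that 1 library decided it. It was called higher with library size alone (0.70, adjusted p = 0.0297) and on log2(TPM + 1) (0.72, adjusted p = 0.0406).

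HIS3 (YOR202W; chromosome XV, 721946 to 722608, plus strand, 1 exon) encodes imidazole glycerol phosphate dehydratase, the target of the inhibitor 3-aminotriazole, and acts on the product of His7. It had 99.3 and 110.9 CPM in the wild type, against 326.9 and 225.1 CPM in nhp6ab. Both nhp6ab libraries were above both wild-type libraries. HIS3 rose 2.63-fold (log2 fold change 1.39 ± 0.16 SE, edgeR adjusted p = 0.000627), which placed it at rank 46 of 6422 genes from the highest log2 fold change. The call held under all 14 alternatives, with values of 1.09 to 1.66. The files do not separate reads of the chromosomal HIS3 gene from reads of a HIS3 marker, so an increase at the locus and an added copy cannot be told apart from the gene's own counts.

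HIS5 (YIL116W; chromosome IX, 142928 to 144085, plus strand, 1 exon) encodes histidinol-phosphate aminotransferase. It had 250.5 and 251.7 CPM in the wild type, against 232 and 189 CPM in nhp6ab. The nhp6ab values were both lower, but the gene was not called (log2 fold change -0.25 ± 0.10 SE, edgeR adjusted p = 0.062). It was called lower with the DESeq2 test (adjusted p = 0.0312), with upper quartile factors (0.0492) and without nhp6ab replicate 1 (-0.42, adjusted p = 0.00193), and its sign turned on log2(TPM + 1) (0.03, adjusted p = 0.78).

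HIS2 (YFR025C; chromosome VI, 203743 to 204750, minus strand, 1 exon) encodes histidinolphosphatase, which frees histidinol for the closing His4 step. It had 76.7 and 80.0 CPM in the wild type, against 84.8 and 83.5 CPM in nhp6ab. The nhp6ab values were slightly above both wild-type values, and the gene was not called (log2 fold change 0.10 ± 0.05 SE, edgeR adjusted p = 0.146). It was called higher with library size alone (0.32, adjusted p = 0.00287) and on log2(TPM + 1) (0.39, adjusted p = 0.00289), settings that moved the median of all genes to 0.22 and 0.283. Over the 7 genes, the CPM values of the strains did not overlap in 5 of 7 members, against 77.5% of all genes tested.

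**Figure D2:**
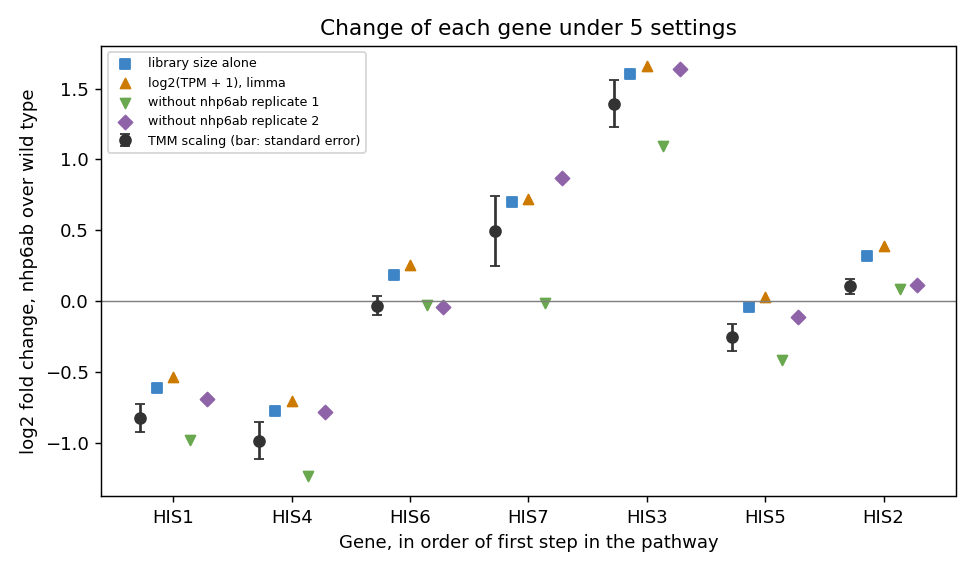
Log2 fold change, nhp6ab over wild type, of the 7 genes with TMM scaling (bars are standard errors) and under 4 alternatives drawn without bars. HIS1 and HIS4 lie below 0 and HIS3 above 0 at every setting shown, and HIS7 runs from -0.01 without nhp6ab replicate 1 to 0.87 without nhp6ab replicate 2.

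Levels per length, in the deposited TPM, spread widely among the members. In the wild type the order was HIS4 (635 and 651 TPM), HIS1 (424 and 417), HIS5 (162 and 169), HIS3 (115 and 133), HIS7 (67.9 and 79.9), HIS2 (57.2 and 62.0) and HIS6 (26.1 and 29.7), and no neighbours in that order overlapped. In nhp6ab HIS3 (466 and 330 TPM) stood beside HIS4 (453 and 342 TPM), and these neighbours overlapped. They were followed by HIS1 (315 and 266), HIS5 (185 and 155), HIS7 (163 and 91.2), HIS2 (78.0 and 78.9) and HIS6 (32.6 and 34.1), where HIS5 and HIS7 overlapped and the other neighbours did not. HIS3 was at 0.181 and 0.205 of the HIS4 level in the wild-type libraries and at 1.03 and 0.965 of it in the nhp6ab libraries.

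As shares of the summed TPM of the 7 genes, HIS4 held 42.7 and 42.2% in the wild type, against 26.7 and 26.4% in nhp6ab. HIS3 held 7.73 and 8.65% in the wild type, against 27.6 and 25.4% in nhp6ab. The sum itself was 1486 and 1542 TPM in the wild type, against 1693 and 1296 TPM in nhp6ab. The strains thus overlapped in summed TPM, while the make-up of the sum differed. Of all expected counts, the 7 genes took 0.2608 and 0.1988% in nhp6ab, less than the 0.2934 and 0.2953% in the wild type. On log2(TPM + 1) the median log2 fold change of all genes was 0.283. The sum and the shares include any HIS3 counts from a marker, whose part was not tested. Between the nhp6ab libraries the shares of HIS1, HIS3, HIS4, HIS5 and HIS7 differed by a smaller ratio than their levels did. The shares of HIS2 (4.61 and 6.09%) and HIS6 (1.93 and 2.63%) differed by a larger ratio than their levels.

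**Figure D3:**
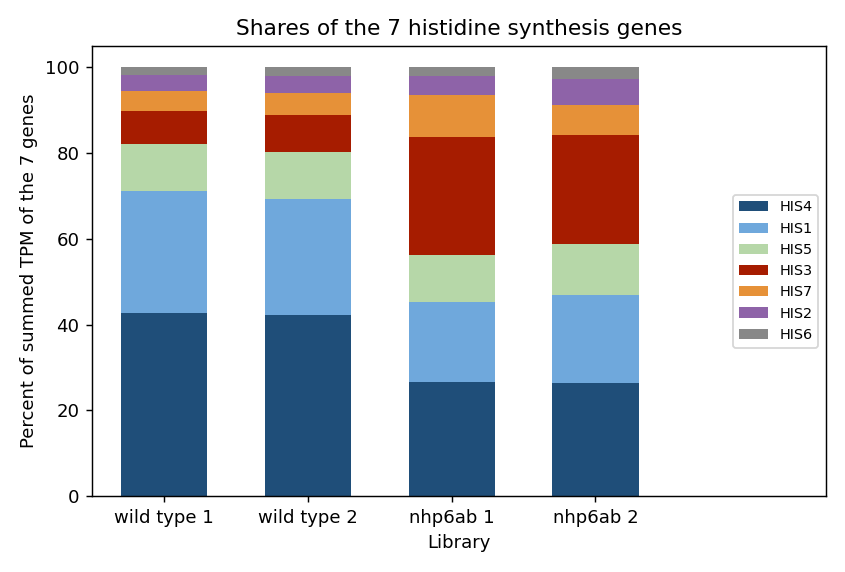
Share of each gene in the summed TPM of the 7 histidine synthesis genes, as stacked percentages, 1 bar per library. HIS4 and HIS1 take the most in the wild type (42.7 and 28.5% in replicate 1), and in nhp6ab replicate 1 HIS3 takes 27.6% and HIS4 26.7%.

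The genes beside HIS3 also had higher counts in nhp6ab, and gene-level counts do not tell apart the chromosomal locus and a copy elsewhere. MRM1 (YOR201C), for a methyltransferase of mitochondrial ribosomal RNA, begins 237 bases from HIS3 and is transcribed away from it. It had 35.6 and 37.9 CPM in the wild type, against 86.7 and 74.5 CPM in nhp6ab, and it rose (log2 fold change 1.13 ± 0.08 SE, edgeR adjusted p = 9.35e-05). DED1 (YOR204W), for an RNA helicase of translation initiation, lies 302 bases downstream on the same strand. It had 223 and 216 CPM in the wild type, against 380 and 403 CPM in nhp6ab, and it rose (0.84 ± 0.06 SE, adjusted p = 8.82e-05). For both genes the nhp6ab libraries lay far above the wild-type libraries, and both kept their calls under all 14 alternatives. The identifier YOR203W, which the R64 annotation used here does not hold, had 11.3 CPM in each wild-type library, against 33.9 and 23.8 CPM in nhp6ab (1.35 ± 0.17 SE, adjusted p = 0.000821). Its profile over the 4 libraries was the nearest to that of HIS3. By its systematic name it lies between HIS3 and DED1, which are 302 bases apart, on the same strand. Whether its counts are reads of HIS3 or DED1 transcripts was not tested, so its likeness to HIS3 may not be independent of HIS3.

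The genes on the far side of these neighbours did not share the rise under TMM scaling. The next annotated gene beyond MRM1, BFR1, had a log2 fold change of -0.34 and was called lower, and the next beyond DED1, GEP3, had -0.10 and was not called. Of the 8 other genes within 5 places of HIS3, 0 were called higher and 5 lower by edgeR's test, with the same counts at an unadjusted p under 0.05, in DESeq2 and in limma-voom. Scaled by library size alone or on log2(TPM + 1), 1 of them (PTP2) was called higher, with 0.33 and 0.39, and 0 lower, and without wild-type replicate 1 or 2 those called lower numbered 3 and 2. Among 5831 runs of 3 adjacent annotated genes tested, 3 runs had all 3 genes called higher with a log2 fold change of at least 0.8, a limit set after these values were seen. These were MRM1, HIS3 and DED1, and a pair of overlapping runs that both hold MAL33 and MAL31. The run of MRM1, HIS3 and DED1 was bound to be among them, since the limit lies below the value of DED1 (0.84). The wider neighbourhood was chosen after the values of MRM1 and DED1 were seen. Over the 13 genes that flank the 7 members, 4 were called higher and 5 lower, against 24.5% and 25% of all genes, with a median of 0.13, and FCY2, upstream of HIS1, and RRP7 and BIK1, beside HIS4, were not called. Without wild-type replicate 1 those called lower numbered 2, and without wild-type replicate 2 they numbered 3. The other flanking genes called higher were GIP2 (0.28), downstream of HIS1, whose call was lost when replicate 2 of either strain was left out, and NUP159 (0.30), downstream of HIS5. Those called lower were LSB3 (-0.43), beside HIS2, PRM5 (-0.50), upstream of HIS5, FAF1 (-0.44), upstream of HIS6, and ENP1 (-0.41) and ARO4 (-0.42), on the sides of HIS7. Scaled by library size alone, 7 passed as higher and 3 as lower, against 47.1% and 12.5% of all genes, and on log2(TPM + 1) 7 and 0, against 55.3% and 9.6%. RPB3, beside HIS6, was not called (0.04). FCY2 differed between the nhp6ab libraries, with 586 CPM in replicate 1 and 379 CPM in replicate 2, against 387 and 434 CPM in the wild type.

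**Figure D4:**
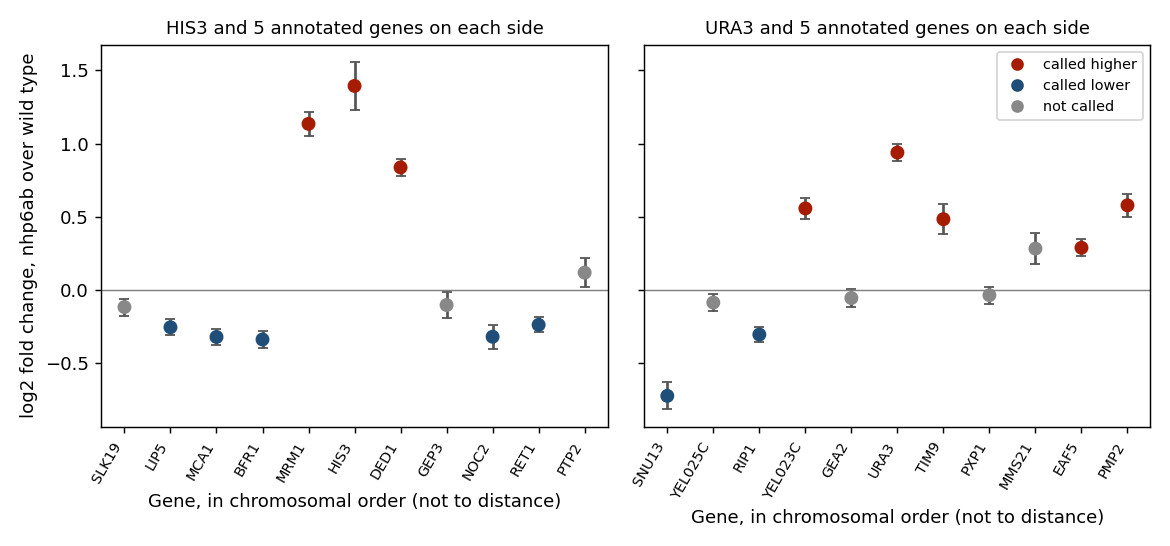
Log2 fold change, nhp6ab over wild type, with standard errors, for HIS3 (left) and URA3 (right) and the 5 nearest annotated genes on each side, in chromosomal order. MRM1 (1.13), HIS3 (1.39) and DED1 (0.84) stand above the genes around them, and URA3 (0.94) stands above its immediate neighbours GEA2 (-0.06) and TIM9 (0.48).

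Other genes often used as selection markers are given beside HIS3, which is itself such a marker. URA3, for orotidine phosphate decarboxylase of pyrimidine synthesis, had 68.0 and 67.3 CPM in the wild type, against 135 and 125 CPM in nhp6ab, and it rose (log2 fold change 0.94 ± 0.06 SE, edgeR adjusted p = 5.61e-05). Of its neighbours, looked up after these values were seen, GEA2 upstream was not called (-0.06), and TIM9 downstream was called higher (0.48 ± 0.10 SE, adjusted p = 0.00787). Of the 10 genes within 5 places of URA3, 4 were called higher and 2 lower, against 24.5% and 25% of all genes tested. Their log2 fold changes lay between -0.73 and 0.58. TRP1 was called higher by a small amount (0.17, adjusted p = 0.0416), a call lost with upper quartile factors, in DESeq2 and when wild-type replicate 1, wild-type replicate 2 or nhp6ab replicate 1 was left out. LEU2 (-0.14, adjusted p = 0.129) and ADE2 (0.75, adjusted p = 0.091) were not called, and LYS2 (-1.40, adjusted p = 3.77e-05) and MET17 (-0.59, adjusted p = 0.000385), also known as MET15, were called lower. All 6 marker genes were measured in both strains, at 47.2 CPM or more in every library. The part of a marker cassette, or of sequence carried beside one, in the values of HIS3, MRM1, DED1, YOR203W and URA3 was not tested.

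The nhp6ab libraries differed from each other in 5 of the 7 members, always with replicate 1 higher. The log2 ratio of replicate 1 to replicate 2 was 0.88 for HIS7, 0.54 for HIS3, 0.44 for HIS4 and 0.29 for both HIS5 and HIS1, but 0.02 for HIS2 and -0.03 for HIS6. Over 5774 genes that averaged 5 CPM or more the median size of this ratio was 0.0684, and between 95.3 and 99.7% of genes differed less than these 5 members. In the wild type the same ratios lay between -0.18 (HIS7) and 0.08 (HIS1), and the median size over genes was 0.0672. There HIS7 (-0.18), HIS3 (-0.16) and HIS6 (-0.13) had replicate 1 lower, and 90, 85.9 and 77.6% of genes differed less than they did. HIS4, HIS5 and HIS7 hold TGACTCA in the windows searched, HIS3 and HIS6 hold only TGACTC, and HIS2 holds neither. HIS6 thus holds the core without such a difference between the nhp6ab libraries. Whether these motifs go with the difference was not tested.

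Of the purine genes listed with the pathway or as markers, ADE4, ADE17 and ADE2 showed the same split between the nhp6ab libraries. ADE4, for the enzyme that commits PRPP to purines, had 174 and 161 CPM in the wild type, against 338 and 163 CPM in nhp6ab. ADE17, for an enzyme that uses the AICAR released by His7, had 656 and 675 CPM in the wild type, against 1052 and 555 CPM in nhp6ab. ADE2 had 417 and 438 CPM in the wild type, against 994 and 440 CPM in nhp6ab. As with HIS7, replicate 1 was far above the wild type for each of these genes and replicate 2 was not. ADE16, the paralog of ADE17, did not split, with 451 and 432 CPM in nhp6ab. By distance between profiles over the 4 libraries, the genes nearest to HIS7 were ADE1 (0.178) and ADE6 (0.196), followed by YRF1-3 and YRF1-7 (both 0.203, copies of a subtelomeric family whose reads may be shared) and ATR1 (0.206), which are not purine genes, a search made after the values of HIS7 were seen. The labels give no difference between the nhp6ab replicates other than their number, and the cause of the split was not tested.

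**Figure D5:**
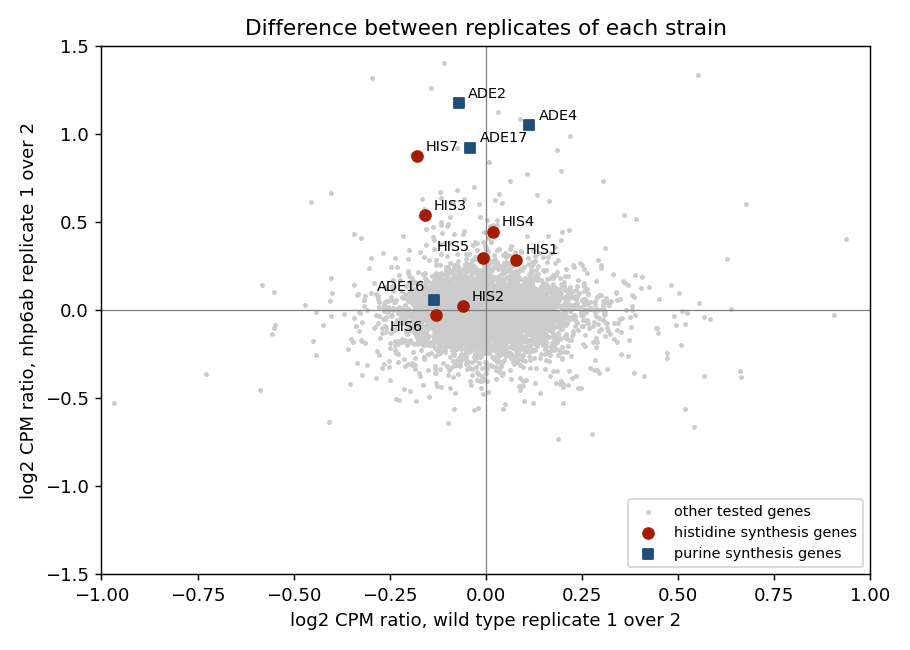
Log2 CPM ratio of replicate 1 to replicate 2 in the wild type (horizontal) and in nhp6ab (vertical), 1 point per gene, for genes that averaged 5 CPM or more (11 genes lie outside the axes). HIS7 (0.88), HIS3 (0.54) and HIS4 (0.44) lie with ADE17 (0.92), ADE4 (1.05) and ADE2 (1.18) above most genes on the vertical axis, while HIS2, HIS6 and ADE16 lie near 0.

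Genes around the pathway moved in both directions. Of 20 related genes, covering regulators, PRPP supply, other PRPP users and histidine use, 7 were called higher and 5 lower, with a median log2 fold change of 0.11, against 24.5% and 25% of all genes. Without wild-type replicate 1 the numbers were 3 and 3, with library size alone 12 and 2, and on log2(TPM + 1) 12 and 1. GCN4, whose protein level is set mainly by translation of its mRNA, had 634 and 629 CPM in the wild type, against 801.5 and 793 CPM in nhp6ab. It rose (0.34 ± 0.05 SE, edgeR adjusted p = 0.0024), as did GCN2, for the kinase that controls that translation, from 53.1 and 52.1 to 65.7 and 71.5 CPM (0.38 ± 0.06 SE, adjusted p = 0.00218). In these libraries with higher GCN4 mRNA, HIS1 and HIS4 were lower, HIS3 was higher and the other members were not called. The part of GCN4 in these values was not tested. BAS1 was not called (0.06, adjusted p = 0.676), and PHO2 was called lower (-0.17, adjusted p = 0.0414) with a sign that turned to 0.05 with library size alone.

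Among the PRPP synthetase genes, PRS2 (0.25), PRS3 (0.27) and PRS5 (0.29) rose, PRS4 (-0.40) fell and PRS1 (0.09) was not called. Without wild-type replicate 1 the calls of PRS2 (adjusted p = 0.0772) and PRS5 (0.0506) were lost, and PRS4 lost its call with library size alone (0.0635) and on log2(TPM + 1) (0.27). Of the other genes for enzymes that use PRPP, URA5 (0.25) rose, its paralog URA10 (-0.83), TRP4 (-0.42) of tryptophan synthesis and FUR1 (-0.29, but 0.0018 on log2(TPM + 1)) fell, and HPT1 (0.08), APT1 (0.13) and ADE4 (0.58) were not called. Without wild-type replicate 1 URA5 (adjusted p = 0.0671) and FUR1 (0.109) lost their calls, FUR1 also did with library size alone (0.397), and TRP4 did on log2(TPM + 1) (0.134). HIP1, the high-affinity histidine permease, had 114.5 and 120.6 CPM in the wild type, against 178 and 143 CPM in nhp6ab. It rose (0.45 ± 0.10 SE, edgeR adjusted p = 0.00987), but the call was lost when wild-type replicate 1 (adjusted p = 0.107) or replicate 2 (0.0731) was left out. HTS1, for histidyl-tRNA synthetase, was not called (-0.04, adjusted p = 0.563), and ADE16 (-0.07) and ADE17 (0.27) were not called either.

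Averaged over the 7 members, the profile across the 4 libraries was nearly flat between strains, since rises and falls offset each other. The 5 genes nearest to that mean profile were LPD1, ADE12, ISA2, MRX15 and MCH1, at distances of 0.0478 to 0.0812, and their log2 fold changes lay between -0.09 and -0.02, none of them called. Single members, searched after their values were seen, had other neighbours by the same distance. HIS4 was nearest to ARO10 (0.108), with a log2 fold change of -0.99, and to GDH1 (0.133), and HIS1 was nearest to MUP1 (0.0293), with -0.81. Such likeness over 4 libraries of 2 strains rests on little more than the strain difference and the gap between the nhp6ab libraries.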

How the data were processed

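The authors deposited, under sheet names of RSEM, expected counts and TPM values per gene for polyadenylated RNA of 2 wild-type and 2 nhp6ab libraries. The submitters' processing notes name sacCer3 as the build, and the aligner, RSEM version, annotation and use of strand were not given in the sources used here. Of 6688 identifiers (4 emptied lines were left out), 6005 matched RefSeq R64, the source of symbols, coordinates and promoters. Libraries were grouped by their titles. The promoter of HIS1 is not reported here.

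Rounded expected counts went into edgeR 4.0.16 (R 4.3.3) with TMM scaling. The low-count filter asked for a CPM worth about 10 counts in at least 2 libraries, and 15 counts in total. Strain alone was tested with a quasi-likelihood F test, with 2 residual degrees of freedom per gene. In it each gene's variance was drawn toward a trend over all genes. The p-values and SE thus rest on other genes as well, not on these 2 degrees of freedom alone. Benjamini-Hochberg adjustment covered 6422 genes, and genes with an adjusted p below 0.05 are said to be called. "Rose" and "fell" are used only of called genes. There was no spike-in, so every change is relative to the other transcripts. The SE is the absolute log2 fold change over the root of F. CPM values use the TMM factors (0.924 and 0.934 for the wild type, 1.06 and 1.10 for nhp6ab). Levels of different genes were compared only on the deposited TPM.

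The named genes are the 7 members, 20 related genes, 6 marker genes, the flanking genes in R64 and the 5 genes nearest to the members' mean profile, by Euclidean distance of log2(CPM + 1) minus its mean over the 4 libraries. Genes named beyond these are said to be chosen after their values were seen. The members and lists were chosen with earlier results of these data known. The 14 alternatives used DESeq2 1.42.0 (as a test and for size factors), scaling by the upper quartile or by library size alone, limma 3.58.1 (voom, and log2(TPM + 1) and log2(TPM + 0.1) for genes with at least 1 TPM in 2 libraries), no filter, a filter of 10 CPM in 2 libraries, a replicate block, and each library left out in turn. Coding sequences were compared with BLAST+ 2.17.0, and plots used Python 3.11.15 with matplotlib 3.10.9.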

Additional observations from a re-analysis of the deposited data

How the results depend on the processing

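HIS1, HIS3 and HIS4 kept their direction and call under all 14 alternatives. Over all genes, 1576 were called higher and 1606 lower with TMM scaling, 3023 and 800 with library size alone, 3558 and 618 on log2(TPM + 1), 3542 and 615 on log2(TPM + 0.1), 901 to 1462 and 1063 to 1557 with a library left out, and the median of all genes moved to 0.22, 0.283 and 0.299 with these scalings. Members called higher numbered 3 with library size alone, 4 on both TPM scales, 2 with the replicate block and 1 to 2 with a library left out, and those called lower 3 with upper quartile factors, in DESeq2, with the block and without nhp6ab replicate 1, and 2 under the other alternatives. On these 3 scalings 12 related genes were called higher each time, and 2, 1 and 1 lower, against 3 to 9 and 3 to 5 with a library left out. Flanking genes called higher numbered 7 on each of these scalings, and lower 3, 0 and 0, against 2 to 5 lower with a library left out. Marker genes called higher numbered 1 with upper quartile factors and the DESeq2 test and 1 to 3 with a library left out.

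HIS2 was 0.32, 0.39 and 0.40 with library size alone and on the log2(TPM + 1) and log2(TPM + 0.1) scales. HIS5 was -0.27 with upper quartile factors, -0.25 in DESeq2, -0.26 with the replicate block (called lower, adjusted p = 0.0188), 0.032 on both TPM scales and -0.42 to -0.11 with a library left out. HIS6 was 0.18, 0.25 and 0.26 with the same scalings and -0.10 to 0.032 with a library left out. HIS7 was 0.70, 0.72 and 0.73 with these scalings, 0.44 with the replicate block (called higher, adjusted p = 0.0421) and -0.014 to 0.87 with a library left out. With library size alone, on log2(TPM + 1) and on log2(TPM + 0.1) the sign turned for PHO2 (0.045, 0.12 and 0.13), ADE16 (0.14, 0.22 and 0.22), HTS1 (0.17, 0.25 and 0.25) and LEU2 (0.074, 0.16 and 0.16), and on the TPM scales for FUR1 (0.0018 on each). Without nhp6ab replicate 1 it turned for ADE17, ADE4, HPT1, FCY2 and RPB3, which ran from -0.27 to 0.66, -0.046 to 1.01, -0.075 to 0.21, -0.12 to 0.51 and -0.029 to 0.093 with a library left out. It turned for BAS1 without wild-type replicate 1 or nhp6ab replicate 2 (range -0.097 to 0.23). The cause was not tested. The labels do not say whether the replicate numbers pair the libraries. Across genes, the correlation of the replicate differences between strains was -0.07. It rests on 1 difference per strain, so it cannot show whether the libraries were paired. The block gave 1626 higher and 1686 lower calls. Leaving out a library leaves a strain with 1 library, which is assumed to vary like the other strain. Counting error (1 SD) was 4% for the lowest count of any member, and its part in the standard errors was not tested.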
